A study of Mus musculus with 4 samples.

Results

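Cadherins, claudins, connexins and the proteins of desmosomes and tight junctions hold neighbouring cells together and let them exchange small molecules. Their transcripts were examined in Swiss 3T3 cells, a mouse fibroblast line. Members were every gene name on the array with the symbol pattern of a numbered cadherin (Cdh), a claudin (Cldn), a connexin of the alpha, beta or gamma class (Gja, Gjb, Gjc), a desmocollin or desmoglein (Dsc, Dsg), a plakophilin (Pkp), a zonula occludens protein (Tjp) or a junctional adhesion molecule (F11r, Jam2, Jam3), with Dsp and Ocln. Such names numbered 83 of 29653 on the array. They comprised 5 classical type I cadherins, 13 type II cadherins, 5 other cadherins, 14 desmosome genes, 23 claudins, 7 other tight junction genes and 16 connexins. Each gene was read from its brightest probe. A total of 62 members had 1 probe and 21 had several.

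The 4 groups were Lpar1+/+ fibroblasts (WT) at 0 h, Lpar1-/- fibroblasts (KO) at 0 h, WT at 24 h and KO at 24 h. All 4 are labelled as cocultured with mast cells, and the protocol describes wild-type mast cells grown from bone marrow in IL-3, then kept on the fibroblast layer for 24 h with SCF at 100 ng/ml. The labels do not state what the 0 h samples held. Lpar1 encodes a receptor for lysophosphatidic acid. The KO line was made with Cas9 and a guide next to exon 3 of Lpar1 and was grown from a single cell, so a difference of the clone and a difference of the genotype cannot be told apart. The RNA of 3 samples was pooled for each array, and each group is 1 array. No test between groups is therefore possible, and no p-value is given. A difference of 2-fold or more (1 on the log2 scale) is named as a description of these arrays. Standard errors (SE) come from the scanner software's error of each spot and leave out the spread between cultures. Signal is the log2 intensity of a probe relative to the 75th percentile of its array, so that 0 is that percentile. A probe not well above background has only an upper bound. Readings are given per genotype, 0 h first and 24 h second.

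The arrays differed in the signal of cell type markers and in the share of spots above background. Between 62.1% and 72.7% of spots were well above background, with the lowest share on KO 24 h. Lpar1 read −3.20 and −3.15 in WT and −3.43 and −3.61 in KO; its probe was not placed relative to the edit and does not check the labels. All 18 mast cell markers on the array were well above background at 0 h, with medians of 4.55 in WT and 5.31 in KO, against −4.50 and −4.31 at 24 h. Fibroblast markers had medians of 2.87 and 3.20 in WT and 1.85 and 3.26 in KO, lowest on the KO 0 h array. Of 19 fibroblast markers measured on both 0 h arrays, 3 were at least 2-fold higher in KO and 6 lower. Over all measured genes the shares were 9.33% and 4.07%. Thy1, a surface glycoprotein, was among the higher ones and read −7.02 in WT and 3.73 in KO at 0 h. Pdgfra had the largest difference on the lower side, with 2.10 in WT and −0.57 in KO. In such mixed RNA, fewer cells of a type and less RNA per cell cannot be told apart.

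Classical cadherins bind the same cadherin on the neighbouring cell and are tied to actin through catenins. Desmosomal cadherins are tied to intermediate filaments through plakophilins and desmoplakin. Claudins, occludin and junctional adhesion molecules form tight junctions on zonula occludens scaffolds, mostly in epithelia and endothelia, while connexins assemble into gap junction channels. Fibroblasts are known for N-cadherin, cadherin 11 and the connexin encoded by Gja1, and lack most epithelial junction proteins.

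Of the 83 members, 31 (37.3%) were well above background on all 4 arrays, 22 on 1 to 3 arrays and 30 (36.1%) on none. Over all gene names these shares were 57.7% on all arrays and 23.0% on none. The members well above background numbered 47 and 41 in WT and 49 and 34 in KO. Those on none comprised 10 of the 23 claudins, 7 of the 13 type II cadherins, 6 of the 14 desmosome genes, 5 of the 16 connexins, Cdh3 and Cdh16. Among them were Cdh3 (P-cadherin), Cdh5 (VE-cadherin of endothelium), Cldn1, Gjb2 and the 3 desmocollins. The most complete detection was in the other tight junction genes, where 4 of 7 were read on all arrays and none was missing throughout. Epithelial markers, which include Cdh1, had medians between −6.49 and −5.32 on the 4 arrays, and endothelial markers, which include Cdh5 and Cldn5, between −7.59 and −4.11.

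**Figure D1:**
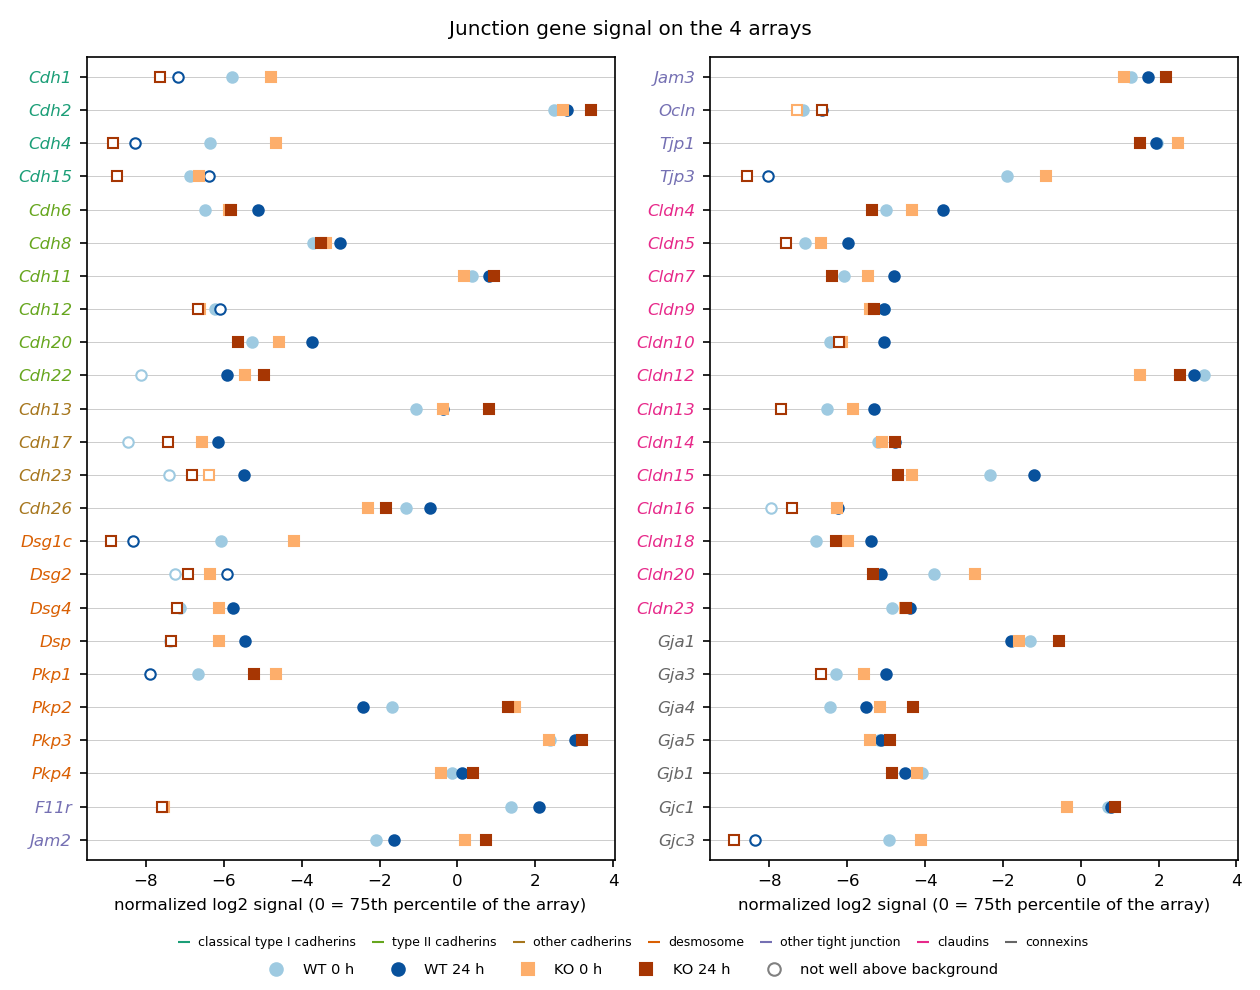
Normalized log2 signal of 48 members that were well above background on at least 1 array, by array (circles WT, squares KO; pale 0 h, dark 24 h); open symbols are not well above background, and gene names are coloured by role. F11r is high on both WT arrays and open on both KO arrays, Pkp2 and Jam2 are higher on both KO arrays, and Tjp3 is high only on the 0 h arrays.

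Of the members, F11r had the highest-ranked genotype difference. It encodes junctional adhesion molecule A, an immunoglobulin-family protein that binds itself across tight junctions. F11r read 1.37 and 2.09 in WT, against −7.55 and −7.59 in KO. Both KO readings were not well above background and both WT readings were far above it. F11r was therefore at least 282-fold lower in KO at 0 h and at least 441-fold lower at 24 h, each bound being the WT signal against the lowest signal called well above background on the KO array. It stood at rank 1 of 698 genes with such a bound on that side at 0 h and at rank 2 of 2704 at 24 h. Over the alternative ways of processing, the KO minus WT bound lay between −8.46 and −5.30 log2 at 0 h and between −9.23 and −5.69 at 24 h. The value rests on 1 probe, on chromosome 1 from 173393848 to 173393907 (mm9).

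Genes next to F11r did not share its pattern. Tstd1, which precedes it in the RefSeq gene order, read −2.87 and −2.22 in WT and −3.65 and −2.81 in KO. Alyref2, which follows it, read 0.22 and 0.12 in WT and 0.10 and 0.24 in KO. Both were within 2-fold between genotypes at each time. Cxadr, the coxsackievirus and adenovirus receptor and a relative of F11r at tight junctions, ran the other way. It was not well above background in WT (−9.63 and −8.45) and read −3.32 and −2.61 in KO at 0 h and 24 h, at least 16.4-fold and 11.7-fold higher.

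The promoters of F11r and Cldn15, the members read lower in KO at both times by more than 2-fold, were taken from RefSeq (GRCm38.p6) and are shown because the difference spans both times in both genes. Each line runs 5′ to 3′ on the plus strand from 250 bases before the start site to 10 bases after it, at chr1:171437311-171437570 for F11r and chr5:136967619-136967878 for Cldn15. Capitals mark the E-box CACCTG (or its reverse complement CAGGTG), the site read by Snail and Zeb repressors, and the TEAD motif GGAATG (or CATTCC).
F11r: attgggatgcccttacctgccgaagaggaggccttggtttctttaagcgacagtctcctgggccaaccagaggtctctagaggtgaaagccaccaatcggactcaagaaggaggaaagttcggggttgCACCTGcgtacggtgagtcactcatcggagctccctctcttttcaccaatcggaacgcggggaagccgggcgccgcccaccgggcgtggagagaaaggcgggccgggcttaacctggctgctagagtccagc
Cldn15: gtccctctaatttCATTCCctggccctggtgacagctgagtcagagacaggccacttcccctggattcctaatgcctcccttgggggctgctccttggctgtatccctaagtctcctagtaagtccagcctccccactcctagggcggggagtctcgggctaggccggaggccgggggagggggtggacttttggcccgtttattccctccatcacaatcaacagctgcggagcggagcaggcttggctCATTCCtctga

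The F11r window held 1 E-box, starting 122 bases before the start site, and no TEAD motif. The Cldn15 window held no E-box and 2 TEAD motifs, starting 237 bases and 1 base before it. In windows of 300 bases, the E-box on either strand was found in 20.2% of 32851 listed promoters and the TEAD motif in 14.7%. Of 66 promoters listed for 49 members, 19 (28.8%) held the E-box and 11 (16.7%) the TEAD motif. These matches describe letters only.

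Pkp2, which encodes plakophilin 2, an armadillo protein of the desmosomal plaque best known in heart muscle, was higher in KO at both times. It read −1.68 and −2.42 in WT, against 1.49 and 1.30 in KO. Both KO readings were above both WT readings. The difference was 3.18 log2 at 0 h (9.04-fold, SE 0.20) and 3.72 at 24 h (13.2-fold, SE 0.21), rank 65 of 20304 and 79 of 17285 genes on that side. Its RefSeq neighbours Spidr and Yars2 were within 2-fold between genotypes at both times. The probe lies on chromosome 16 from 16272648 to 16272707 (mm9).

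Jam2, which encodes junctional adhesion molecule B, a partner of the Jam3 product across cell contacts, followed the same order. Its signal was −2.09 and −1.63 in WT, and 0.20 and 0.74 in KO. Both KO arrays were above both WT arrays. KO exceeded WT by 2.28 log2 at 0 h and 2.37 at 24 h (SE 0.20 each). At 0 h its other probes were higher in KO by 1.82 and 1.39. At 24 h one of them gave 1.93, and the other was well above background in KO only. The probe used lies on chromosome 16 from 84816558 to 84816617 (mm9). Jam3 itself, junctional adhesion molecule C, read 1.30 and 1.74 in WT and 1.12 and 2.18 in KO, with genotype differences of −0.18 and 0.44.

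Cldn15, a claudin that forms cation pores in the gut, was lower in KO. It read −2.33 and −1.19 in WT, against −4.33 and −4.69 in KO. The difference was −2.01 log2 at 0 h (SE 0.22) and −3.50 at 24 h (SE 0.23). The genotypes did not overlap, and WT 24 h was the highest of the arrays. Centred on fibroblast markers, the 0 h difference was −0.99. The 24 h difference of Cldn15 and both differences of F11r, Pkp2 and Jam2 stayed past 2-fold under every alternative processing. The probe lies on chromosome 5 from 137451465 to 137451524 (mm9).

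Smaller genotype differences appeared in cadherins 13 and 26. Cdh13, or T-cadherin, a cadherin held in the membrane by a lipid anchor, read −1.06 and −0.37 in WT and −0.37 and 0.82 in KO. KO minus WT was 0.69 log2 at 0 h and 1.18 at 24 h (SE 0.20), and KO 24 h stood above the other arrays. A dimmer second probe of Cdh13 gave 0.28 and 0.30. Of the spike-in RNAs, control transcripts added in equal amounts, the 8 with mean signal at or above −4 also read higher in KO at 24 h, by a median of 0.54. Centred on spike-ins, the 24 h difference of Cdh13 was 0.74. Cdh26 read −1.32 and −0.71 in WT and −2.30 and −1.83 in KO, with genotype differences of −0.98 and −1.12. The KO readings of Cdh26 lay below the WT readings at both times.

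Counted over the measured members, KO was at least 2-fold higher than WT at 0 h for 9 of 44 and lower for 3. Over all measured genes these shares were 9.33% and 4.07%. Members with a bound added 3 higher (Cdh22, Dsp, Cldn16) and 1 lower (F11r), where 26.9% and 8.05% of all genes with 1 reading above background had such a bound. The members that were higher were Pkp2, Jam2, Pkp1, Dsg1c, Cdh4, Gja4, Cldn20, Dsg4 and Tjp3, and those lower were Cldn15, Cldn12 and Gjc1. With the mean of all probes of a gene, Dsg4 turned to −0.13 and Cdh4 gave 0.95. With normexp background correction, Pkp1 gave 0.74 and Dsg1c 0.84, and Cdh4, Gja4, Cldn20, Dsg4 and Tjp3 were also under 2-fold. The median over the members was 0.37, against 0.06 over all genes. Of the higher ones, 7 were dim (mean signal under −4), out of 26 dim members measured. Over all measured genes of such signal, 16.9% were higher. Of the spike-in RNAs, control transcripts added in equal amounts, the 1 that was dim yet above the floor of every array also read higher in KO, by 0.68. Centred on fibroblast markers, which were lower on the KO 0 h array, 28 members were higher and 0 lower, while 11186 of all 20304 genes were higher and 211 lower. The mast cell median was likewise higher on KO 0 h (5.31 against 4.55), and its part in the result was not tested.

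At 24 h, KO was at least 2-fold higher for 5 of 32 measured members and lower for 6, against 5.76% and 12.3% of all measured genes. Pkp2, Jam2, Gja1, Gja4 and Cdh13 were higher, and Cldn15, Cdh20, Cldn4, Cldn7 and Cdh26 were among the lower. A second probe of Cldn7, of similar signal, gave −0.78. The bounds were 0 higher and 6 lower (F11r, Gja3, Cldn13, Dsp, Cdh23 and Cldn10), against 8.74% and 56.2% of all genes with a bound to give. The share of lower bounds was high over the whole array, and KO 24 h had the fewest spots above background. The medians were 0.06 over the members and −0.09 over all genes. Among the 18 measured members with mean signal at or above −4, 4 were higher and 2 lower, against 6.28% and 6.55% of all such genes. Below it, 1 of 14 was higher and 4 lower, against 3.69% and 35.1% of all such genes. The dim spike-in read −0.80, and the 8 brighter ones had a median of 0.54. With normexp background correction, which raises dim signal, 4 members were higher and 1 lower.

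**Figure D2:**
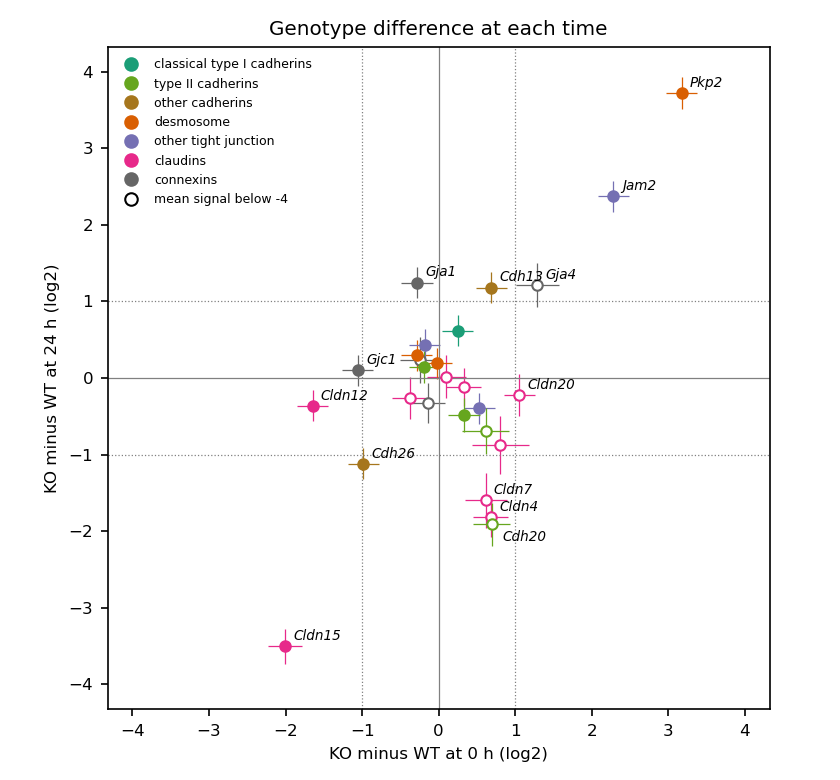
KO minus WT difference (log2) at 0 h, horizontal, and at 24 h, vertical, for 27 members measured on all arrays, coloured by role; bars are ± 1 SE from spot error, open points have a mean signal below −4, and dotted lines mark 2-fold. Pkp2 (3.18 and 3.72) and Jam2 (2.28 and 2.37) lie in the upper right and Cldn15 (−2.01 and −3.50) in the lower left; F11r has bounds only and is not drawn.

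Among the classical cadherins, Cdh2, or N-cadherin, was the only one well above background on all arrays. It read 2.48 and 2.80 in WT and 2.72 and 3.42 in KO. Every array was high, with KO 24 h highest, and every pairwise difference was within 2-fold (0.25 and 0.62 between genotypes, 0.33 in WT and 0.70 in KO between times). Cdh1, or E-cadherin, read −5.78 in WT and −4.78 in KO at 0 h and was not well above background at 24 h. Cdh4, or R-cadherin, read −6.36 in WT and −4.65 in KO at 0 h and was likewise not well above background at 24 h.

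Among the type II cadherins, Cdh11, the cadherin of mesenchymal cells, read 0.37 and 0.80 in WT and 0.18 and 0.94 in KO. It differed by −0.19 and 0.14 between genotypes, and by 0.43 in WT and 0.76 in KO between times, each within 2-fold. A second, dimmer Cdh11 probe was higher at 24 h in KO by 1.26. The remaining type II cadherins measured on all arrays, Cdh6, Cdh8 and Cdh20, had mean signals from −5.82 to −3.40.

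In the desmosome group, Pkp3 and Pkp4 were read beside Pkp2 on all arrays. Pkp3 (plakophilin 3) read 2.38 and 3.01 in WT and 2.35 and 3.21 in KO. Pkp4, a relative also found at adherens junctions, read −0.13 and 0.11 in WT and −0.42 and 0.41 in KO. Both were within 2-fold in every comparison, and both were higher at 24 h than at 0 h in each genotype. Pkp1 (plakophilin 1) read −4.67 and −5.22 in KO and −6.67 in WT at 0 h, and was not well above background in WT at 24 h. It was 4.00-fold higher in KO at 0 h. Desmoplakin (Dsp) joins the plaque to intermediate filaments. Its brightest probe, of 1 spot, was well above background on KO 0 h (−6.12) and WT 24 h (−5.46) only. A second Dsp probe, printed in 10 spots, stayed at background throughout, with −9.19 and −8.22 in WT and −8.79 and −8.72 in KO. The bounds of Dsp past 2-fold, between genotypes at each time and between times in WT, all fell under 2-fold with normexp. The WT bound also did so with the mean of all probes. Dsg2, the widely expressed desmoglein, was well above background on KO 0 h (−6.35) alone.

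The zonula occludens scaffold encoded by Tjp1 (ZO-1) was read on every array. Its signal was 1.96 and 1.93 in WT and 2.49 and 1.53 in KO. KO 0 h was the highest array and KO 24 h the lowest. The difference between times was −0.96 in KO and −0.03 in WT, both within 2-fold. Occludin (Ocln), the tight junction membrane protein that ZO proteins bind, was well above background on WT 0 h alone, at −7.13.

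Tjp3, which encodes ZO-3, the scaffold most restricted to epithelia, was read at 0 h only. It was −1.89 in WT and −0.88 in KO, and not well above background at 24 h (−8.03 and −8.57). Both 0 h arrays were high and both 24 h arrays low. It was at least 19.4-fold lower at 24 h in WT and at least 56.1-fold lower in KO, past 2-fold under every alternative processing. The probe lies on chromosome 10 from 80735967 to 80736026 (mm9).

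Further members showed the 0 h pattern at lower signal. Gjc3, a connexin of myelinating glia, read −4.92 in WT and −4.09 in KO at 0 h and was not well above background at 24 h. It was at least 2.37-fold lower at 24 h in WT and 6.04-fold in KO. Dsg1c, a desmoglein, read −6.09 in WT and −4.20 in KO at 0 h and was at least 5.61-fold lower at 24 h in KO; in WT the bound was 1.06-fold. Cdh4 and Cdh1 were at least 4.11-fold and 3.75-fold lower at 24 h in KO; the log2 bounds were −0.31 and −0.24 with normexp background correction, and −0.67 for Cdh4 with the mean of all probes. Cldn20, a claudin, was read on all arrays (−3.77 and −5.12 in WT, −2.71 and −5.35 in KO), with differences between times of −1.36 in WT (SE 0.25) and −2.63 in KO (SE 0.24). With normexp, Gjc3 gave −0.14 in WT and −0.62 in KO, Dsg1c −0.51 in KO and Cldn20 −0.47 in WT, each under 2-fold. The KO difference of Cldn20 stayed past 2-fold under every alternative processing.

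In KO these members, grouped for reading lower at 24 h, were lower by at least 2-fold. All but Cldn20 were so as bounds, as were 33.4% of all genes with a bound to give. Of the measured markers in KO, 13 of 14 for mast cells and 11 of 12 for leukocytes were also lower by at least 2-fold. The share of all measured genes was 10.9%. Of the leukocyte list, Arhgdib differed by −0.58 in KO and −0.04 in WT, and Itgb2 by −1.15 in KO and 0.03 in WT. Among the members, Tjp3, Gjc3 and Cldn20 were also lower by at least 2-fold in WT, while Cdh1 had a bound of 1.31-fold and Cdh4 had none. The mast cell list was lower at 24 h for 14 of 15 measured markers in WT, with the remaining 3 on the array lower as bounds; Cd63, a granule membrane protein also found in other cells, read between 6.13 and 6.37 on all arrays. Tjp3, Gjc3, Cdh1, Dsg1c, Cdh4 and Cldn20 each read higher on KO 0 h than on WT 0 h, by 1.00, 0.82, 0.99, 1.88, 1.71 and 1.05, and the leukocyte median was also higher there (3.18 against 1.97). Among the epithelial markers, Spint1, a protease inhibitor, was also lower at 24 h (−0.05 and −5.59 in WT), while Epcam, an adhesion protein of epithelia, read −6.15 and −4.54 in WT and −5.31 and −6.11 in KO. The part of mast cell RNA in these values was not tested.

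**Figure D3:**
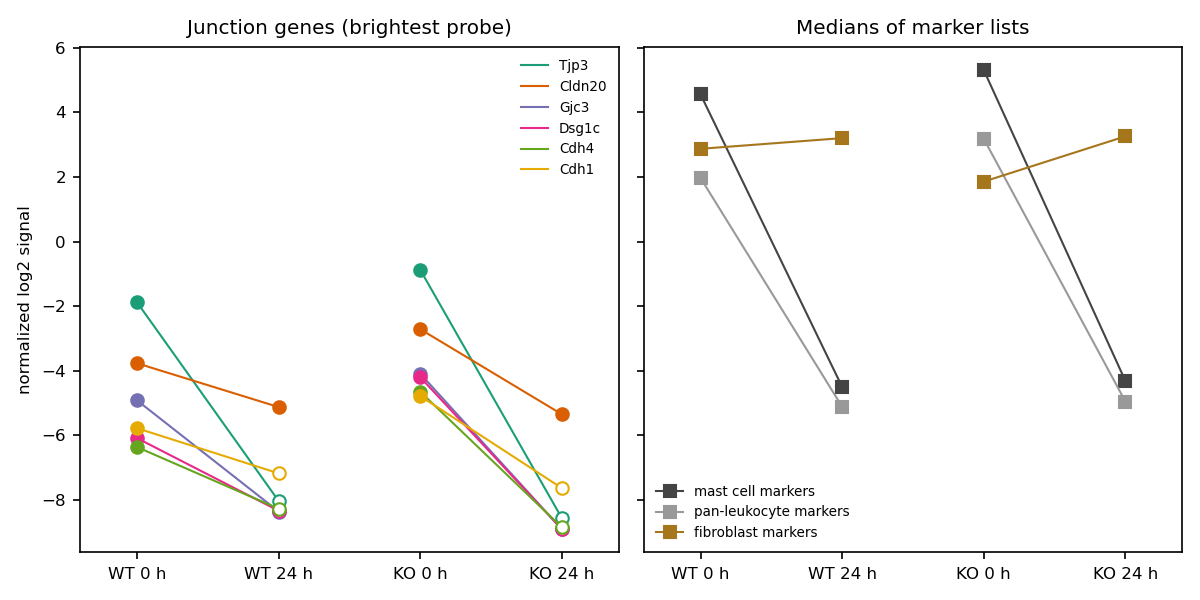
Normalized log2 signal of 6 members on each array (left; open circles are not well above background) and the medians of the mast cell, leukocyte and fibroblast marker lists (right). Tjp3 goes from −1.89 to −8.03 in WT and from −0.88 to −8.57 in KO, and the mast cell median from 4.55 to −4.50 and from 5.31 to −4.31.

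The connexins Gja1 and Gjc1 were at least 2-fold higher at 24 h in KO and within 2-fold in WT. The size and direction of the KO differences depend on the scaling. Centred on fibroblast markers, which moved the KO median of all genes from 0.23 to −1.18, they were −0.37 and −0.16. The 8 spike-in RNAs with mean signal at or above −4 read higher at 24 h in KO by a median of 0.48. Centred on spike-ins, both KO differences were under 2-fold, and that of Gja1 was also under 2-fold with normexp. Gja1, the main connexin of fibroblasts, read −1.30 and −1.80 in WT and −1.59 and −0.56 in KO. KO 24 h was the highest of the arrays and WT 24 h the lowest. The 24 h minus 0 h difference was 1.03 in KO and −0.50 in WT (SE 0.20 each), so the KO change exceeded the WT change by 1.53 (SE 0.29). Between genotypes, Gja1 was higher in KO at 24 h by 1.25 (0.81 centred on spike-ins) and lower at 0 h by −0.28. The Gja1 probe lies on chromosome 10 from 56109814 to 56109873 (mm9).

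Gjc1, a connexin of heart and smooth muscle, read 0.70 and 0.78 in WT and −0.36 and 0.88 in KO. Its difference between times was 1.24 in KO and 0.08 in WT. KO 0 h was its low array, whereas Gja1 was high on KO 24 h.

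Cldn12, a claudin without the usual binding motif for scaffolds, was also low on KO 0 h: it read 3.17 and 2.92 in WT and 1.52 and 2.55 in KO. Its genotype difference at 0 h was −1.65 (−0.63 centred on fibroblast markers), and its KO difference between times was 1.03. At 0 h Gjc1 differed between genotypes by −1.06 (−0.04 with that centring). Jam3 was higher at 24 h in KO by 1.06 and in WT by 0.44. KO 0 h also had the lowest fibroblast marker median (1.85, against 3.26 on KO 24 h). With signal centred on the fibroblast markers, the KO differences between times became −0.37 for Gja1, −0.16 for Gjc1, −0.37 for Cldn12, −0.34 for Jam3 and −0.21 for Cdh13. This centring lowers every gene by the same amount, so it turns any smaller KO difference and shows nothing about these 5 in particular. It used the gap between list medians; the median difference of the single fibroblast markers in KO was 0.79. With the same centring, the KO change minus the WT change was under 2-fold for Gja1 (0.46), Cldn12 (0.21) and Gjc1 (0.09). Centred on spike-ins instead, the KO differences between times of Gja1, Gjc1, Cldn12, Jam3 and Cdh13 were all under 2-fold. Those of Cldn12 and Jam3 were also under 2-fold with quantile normalization, and that of Cldn12 with normexp.

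Gja4, Gja5 and Gjb1 were dim. Gja4, a connexin of endothelium, read −6.44 and −5.51 in WT and −5.16 and −4.30 in KO, with genotype differences of 1.29 and 1.21. Both differences were under 2-fold with normexp, and the 24 h difference was also under 2-fold centred on spike-ins. Gjb1 was within 2-fold in every comparison, and so was the brightest probe of Gja5. A dimmer Gja5 probe was higher at 24 h in WT by 1.53 and was not well above background in KO at 24 h.

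In WT, 12 of 37 measured members were at least 2-fold higher at 24 h than at 0 h and 1 (Cldn20) was lower, against 15.8% and 5.57% of all measured genes. Bounds gave 4 higher (Cdh17, Cdh22, Cdh23 and Dsp) and 3 lower (Tjp3 and Gjc3 among them), where all genes gave 26.0% and 18.9%. The median was 0.47 over the members and 0.28 over all genes. The higher ones included 7 claudins (Cldn4, Cldn5, Cldn7, Cldn10, Cldn13, Cldn15 and Cldn18), Cdh6, Cdh20, Dsg4 and Gja3. A second probe of Cldn7, of similar signal, gave 0.37. All 12 but Cldn15 had a mean signal below −4. Above that level 1 of 19 members was higher, while below it 11 of 18 were. Over all measured genes, 4.35% were higher above that level and 45.8% below it. The dim spike-in RNA read higher at 24 h by 1.25, against a median of 0.25 for the 8 brighter ones. Quantile normalization left 4 higher and 1 lower, and normexp left 0.

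In KO, 7 of 34 measured members were at least 2-fold higher at 24 h and 4 lower, against 9.48% and 10.9% of all measured genes. The higher ones included Gjc1, Cdh13, Jam3, Gja1 and Cldn12, and all 7 had a mean signal at or above −4. The lower ones included Cldn20, Cdh20 and Cldn4, and all 4 were below it. Members measured numbered 18 at or above that level and 16 below it. Over all measured genes, 10.4% were higher at or above that level, and 15.1% were lower below it. Bounds gave 0 higher and 6 lower (Tjp3, Gjc3, Dsg1c, Cdh4, Cdh1 and Gja3), against 2.80% and 33.4% of all genes with a bound to give. The median was 0.40 over the members and 0.23 over all genes.

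**Figure D4:**
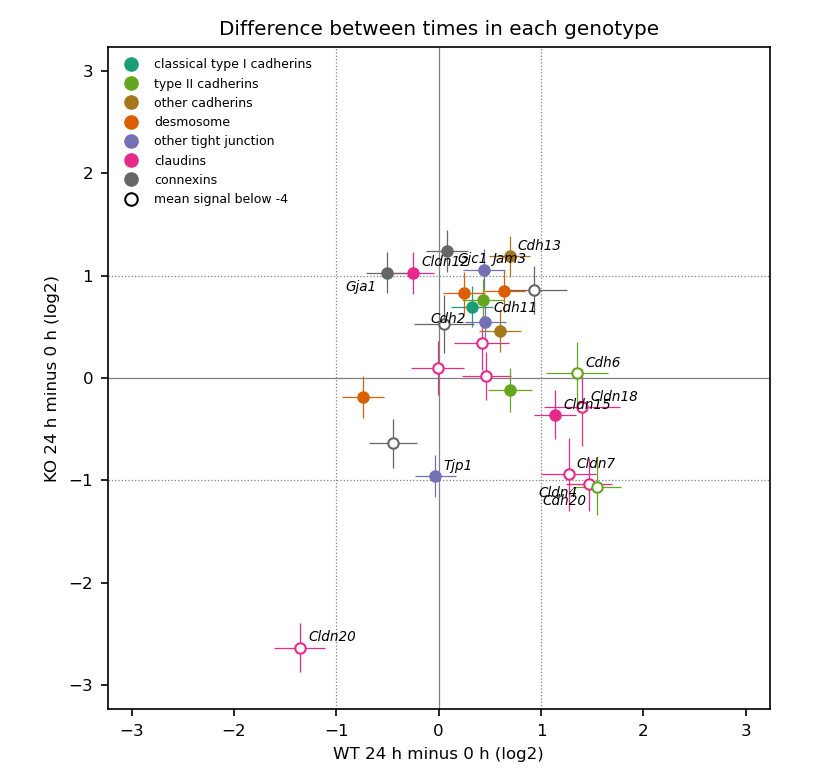
Difference between 24 h and 0 h (log2) in WT, horizontal, and in KO, vertical, for 27 members measured on all arrays, coloured by role; bars are ± 1 SE from spot error, open points have a mean signal below −4, and dotted lines mark 2-fold. Gja1 (−0.50 and 1.03) and Gjc1 (0.08 and 1.24) lie high with a WT difference under 2-fold (centring on fibroblast markers shifts all genes alike and gives KO differences of −0.37 and −0.16), and a group of open points lies at the lower right.

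The KO change exceeded the WT change by at least 2-fold for 5 of 31 members (among them Gja1 1.53, Cldn12 1.28 and Gjc1 1.16) and fell short of it for 8, against 4.72% and 13.3% of all measured genes. The 8 included Cdh20 (−2.61), Cldn4 (−2.50), Cldn7 (−2.21), Cldn18 (−1.68), Cldn15 (−1.50), Cdh6 (−1.30) and Cldn20 (−1.28). All 8 but Cldn15 were dim in that sense, and the dim spike-in RNA gave −1.48. Of all genes below that level, 1444 of 3309 fell short by 2-fold. With normexp, 1 member fell short and 5 still exceeded.

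**Figure D5:**
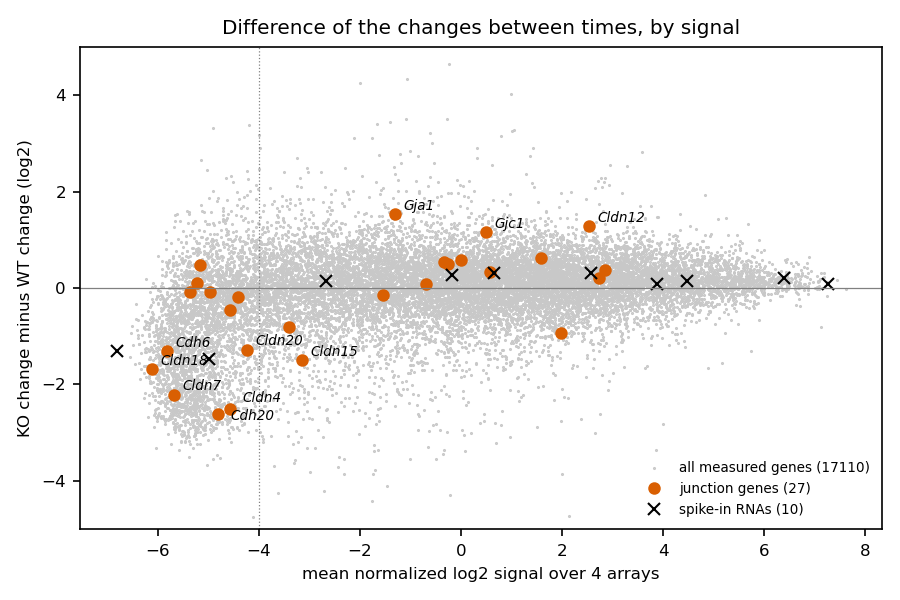
KO change minus WT change (log2) against the mean signal over the 4 arrays for 17110 measured genes (grey; 6 lie outside the axis), 27 members (orange) and 10 spike-in RNAs (crosses); the dotted line marks a mean signal of −4. Gja1, Gjc1 and Cldn12 lie above 1 at moderate signal, and most members below −1 lie left of the line, where the crosses also drop; the leftmost cross is below the floor of both 24 h arrays.

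Among the cytoplasmic partners of the cadherins, alpha-catenin (Ctnna1) read between 5.01 and 5.79 and beta-catenin (Ctnnb1) between 2.82 and 3.51 on the 4 arrays, and p120-catenin (Ctnnd1) between 3.60 and 4.51. Plakoglobin (Jup), the catenin that desmosomes share, read −6.22 in WT and −6.02 in KO at 0 h. Of 15 catenins and adaptors on the array, KO was 2-fold higher for 4 of 13 measured at 0 h and lower for 1. At 24 h it was higher for 2 of 11 and lower for 1. Over all measured genes the shares were 9.33% and 4.07% at 0 h, and 5.76% and 12.3% at 24 h. Vinculin (Vcl), which links catenins to actin, was higher in KO at both times, by 1.07 and 1.03, and Ctnnal1, an alpha-catenin relative, by 1.19 and 2.58. Ctnnd2, a neural relative of p120-catenin, was at least 11.4-fold lower at 24 h in KO, and Ajuba, an adaptor, was higher by 1.13. Ctnna2, the neural alpha-catenin, had differences between times of −3.58 in WT and −6.89 in KO, in the direction of the mast cell markers. Nectin2, a nectin of adherens junctions, was lower in KO at 0 h by −1.45.

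Among 18 tight junction proteins outside the pattern of names, 3 of 14 measured were higher and 1 lower in KO at 0 h. At 24 h, 2 of 12 were higher and 1 lower. All measured genes gave 9.33% and 4.07% at 0 h, and 5.76% and 12.3% at 24 h. Patj, a scaffold of cell polarity, was higher in KO by 2.46 and 1.41. Lsr, a protein of junctions where 3 cells meet, had differences between times of −2.33 in WT and −2.16 in KO. Cingulin (Cgn), a plaque protein, was higher at 24 h in KO by 1.51 and in WT by 0.46. Igsf5 and Marveld2, both tight junction membrane proteins, were well above background at 0 h only, as Tjp3 was. Of the connexin relatives, Panx1, which forms membrane channels, was higher in KO at 24 h by 1.48 and at 24 h over 0 h in KO by 1.14.

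Repressors of Cdh1 and related regulators were read on the arrays as a separate list of 14. In KO against WT at 0 h, 0 of 9 measured were 2-fold higher and 0 lower, against 9.33% and 4.07% of all measured genes. At 24 h 1 of 8 was higher and 0 lower, against 5.76% and 12.3%. The one measured as higher at 24 h was Zeb1, which read −0.10 and −0.30 in WT and 0.82 and 1.23 in KO. Bounds added Grhl2, an epithelial regulator, at least 2.21-fold higher in KO at 0 h. They also added Esrp1, an epithelial splicing factor, at least 2.61-fold lower in KO at 24 h. Of all genes with a bound to give, 26.9% were at least 2-fold higher at 0 h and 56.2% lower at 24 h. Snai1 read between 1.02 and 1.93, Snai2 between 0.95 and 2.76 and Zeb2 between 1.35 and 2.29 over the arrays. Twist2 and Twist1 were higher at 24 h in KO by 1.40 and 1.15, where the fibroblast marker median was also higher (3.26 against 1.85).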

How the data were processed

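The 4 arrays are single-colour (Cy3) Agilent arrays of design 026655, placed on mouse build mm9; the file headers name Feature Extraction 12.1.1.1. All lay on 1 slide. The deposited scanner files hold the processed intensity of each spot, background-subtracted per the file headers. The value table that the authors deposited holds a ratio of that intensity to each array's 75th percentile, as a comparison with the scanner values showed, and served as an alternative. Here log2 intensity minus the 75th percentile of non-control spots was used, spots of a probe were averaged without outlier flags, and the probe with the highest mean signal stood for a gene. A difference needed signal well above background on every array compared; otherwise an at-least fold was set against the lowest signal well above background. The computation was tested on simulated folds. Promoters were matched by symbol to RefSeq. Results of some members are not reported here. Probes were not placed in exons or UTRs. The members and lists were chosen with earlier results of these data known. Named genes are members past 2-fold, the brightest members, and junction genes, partners and markers listed by name. Python 3.11.15 and limma 3.58.1 (normexp offset 50) were used.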

Additional observations from a re-analysis of the deposited data

Results flagged for a closer look

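Cdh20 and Cldn4 were higher at 24 h than at 0 h by at least 2-fold in WT and lower by at least 2-fold in KO, and this opposite direction marked them; the difference was not tested, since each group is 1 array. The KO change minus the WT change was −2.61 for Cdh20 (1.55 in WT and −1.06 in KO) and −2.50 for Cldn4 (1.46 and −1.04). Both were dim (mean signal under −4), and the spike-in RNA of such low signal that was above the floor of every array gave −1.48. The opposite direction past 2-fold was lost in KO with quantile normalization (−0.42 and −0.43) and normexp (−0.04 and −0.06). With normexp the difference of changes was −0.89 and −0.98.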

How the results depend on the processing

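With 1 array a group, no spread between cultures was measured, and no replicate could be left out. No paired analysis was possible because the groups share only 1 replicate number. Counts below are members past 2-fold on either side. In WT between times the 13 members became 5 with quantile normalization (4 higher, 1 lower), 0 with normexp, 45 with no filter on dim probes, 2 with a stricter filter and 20 at 1.5-fold. In KO the 11 became 7 with normexp, 31 with no filter, 17 with fibroblast centring (0 higher, 17 lower) and 20 at 1.5-fold. Between genotypes at 0 h the 12 became 5 with normexp, 24 with no filter, 6 with the stricter filter, 28 with fibroblast centring (28 higher, 0 lower) and 25 at 1.5-fold. At 24 h the 11 became 5 (4 higher, 1 lower), 38 (7 higher, 31 lower) and 6 (4 higher, 2 lower) with normexp, no filter and the stricter filter. For the difference of changes the 13 became 6 (5 higher, 1 lower), 54 (7 higher, 47 lower) and 7 (5 higher, 2 lower). Quantile normalization split it 8 to 5, and spike-in centring, chosen after seeing the data, 3 to 10. With spike-in centring the split was 2 to 6 in KO between times, 6 to 6 at 0 h and 2 to 8 at 24 h. Fibroblast centring moved the median of all genes to −1.18 in KO between times and 1.07 between genotypes at 0 h. It shifts all genes alike in a comparison, down in KO between times and up between genotypes at 0 h. Under it, 10905 of 17856 genes were lower in the former and 11186 of 20304 higher in the latter. The KO differences between times then were −0.21 for Cdh13, −0.37 for Cldn12, −0.37 for Gja1, −0.16 for Gjc1 and −0.34 for Jam3. With the mean of all probes, Dsg4 in KO against WT at 0 h turned to −0.13. The median signal of members on 4 arrays moved with normexp from −2.09 to −1.76 on WT 0 h, −2.30 to −1.92 on KO 0 h, −1.80 to −1.61 on WT 24 h and −1.83 to −1.50 on KO 24 h. The cause of these shifts was not tested. The authors' value table gave the same calls. Dim probes limit most calls below −4.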
